A study of Mus musculus with 24 samples.

Results

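Hindlimb (HL) buds were compared with forelimb (FL) buds of wild-type mouse embryos at embryonic stage E11.5, across all genes. The members were the 6 libraries labelled E11.5 wild type, 3 HL and 3 FL, of 24 libraries in the series. They were chosen by stage, genotype and limb from the sample labels. No measured value entered that rule, but earlier results of these data were known. Of 38019 gene symbols per library, 10978 passed a level filter and were tested.

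Every embryo was of the C57/Bl6 strain and carried floxed alleles of the U11 gene, Rnu11, which encodes a small nuclear RNA of the minor spliceosome. Wild-type (WT) embryos had the floxed alleles without Prrx1-Cre. The same limb comparison is given beside it in 2 other settings, E11.5 mutant limbs (floxed alleles with Prrx1-Cre, 3 HL and 3 FL libraries) and E10.5 WT limbs (3 HL and 3 FL libraries). The Prrx1 promoter drives Cre in limb bud mesenchyme, so ectoderm, muscle precursors, vessels and blood in a mutant bud are not its main target. Total RNA was sequenced. The labels do not say whether a library came from 1 embryo or a pool, so p-values measure only the spread between these libraries, which may be technical.

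Forelimb and hindlimb buds are built from the same mesenchyme and ectoderm and use the same growth signals, but their outgrowth starts under different transcription factors. Tbx5 is needed to start the forelimb bud, while Pitx1, Isl1 and Tbx4 act in the hindlimb, and posterior HoxC genes mark the body level at which the hindlimb arises. The mouse forelimb bud forms earlier than the hindlimb bud, so at a given embryonic day the forelimb is developmentally ahead.

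Values are TPM (transcript abundance scaled to the same total in each library), rescaled to one common median, taken over the genes that reach 5 TPM throughout. TPM keeps no depth, so the read depth behind each value is unknown. Nuclear protein-coding genes held 13.6, 17.3 and 17.5% of the deposited TPM in the HL libraries and 17.3, 14.7 and 15% in the FL libraries (exact two-sided permutation test on 3 against 3 libraries, p = 0.8; the smallest p this design allows is 0.1). Rnu11, the floxed gene, was present in all 6 libraries, at 1798, 1401 and 787 rescaled TPM in HL and 1110, 1065 and 1149 in FL. In these bulk samples, fewer cells of a type and less RNA per cell cannot be told apart.

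Limb type separated the 6 libraries in few genes. Of the 10978 genes tested, 16 differed between HL and FL (limma, Benjamini-Hochberg adjusted p under 0.05), which is 0.146% of the genes tested. Before adjustment, 761 genes (6.93%) had p under 0.05. In HL, 9 genes were higher (0.082%) and 7 were lower (0.0638%). All 16 had 3 HL values that did not overlap the 3 FL values, a separation found in 1324 genes (12.1%), with HL above FL in 545 (4.96%) and below in 779 (7.1%). The median log2 fold change over all genes tested was -0.01, with 5227 genes above 0 and 5751 (52.4%) below, and 107 genes had an absolute log2 fold change over 1. On the deposited scale, without rescaling, 16 genes were again called, 14 of them shared, and 68.8% of the calls were higher in HL, against 56.2% on the rescaled values; the median of all genes was then 0.06. A fit on the 6 WT libraries alone, with its own estimate of the spread, called 44 genes (0.42% of 10472), 18 higher (0.172%) and 26 lower (0.248%), and these included all 16. The added calls include genes listed at 0 in all 3 libraries of 1 limb, namely Gm23121, Gm25197, Gm27535, Gm26130, Gm27295 and Gm9805. Libraries at 0 add no spread, so p-values of these genes are no support for a limb difference. In either fit, the pooled spread may likewise be too small for a gene near 0 in 1 limb. Unless stated otherwise, folds below are log2(rescaled TPM + 1) differences, HL minus FL, from the fit on the 12 E11.5 libraries; this scale understates the change of low genes.

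**Figure D1:**
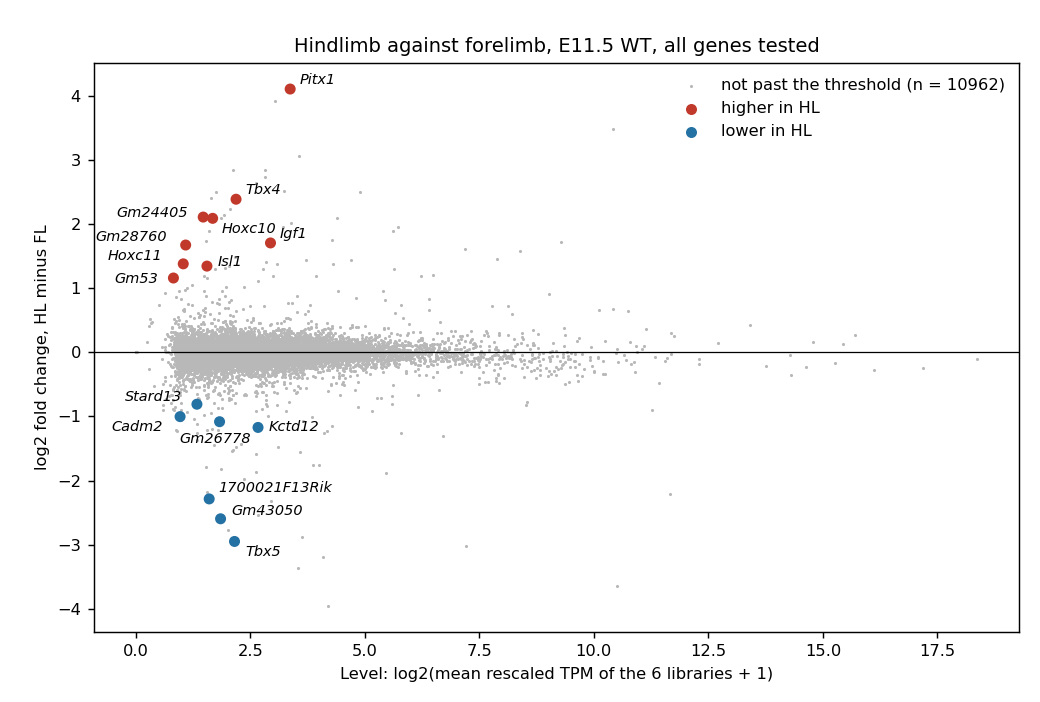
Log2 fold change, HL minus FL, against the mean level of the 6 E11.5 WT libraries for all 10978 genes tested, with the 16 genes past the threshold in colour. Pitx1 stands highest at 4.11 among the coloured points and Tbx5 lowest at -2.95; the grey points of similar size did not pass the threshold.

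The 3 hindlimb transcription factors were all higher in HL. Pitx1, a homeodomain factor that directs hindlimb form, had 15.9, 22.3 and 17.5 TPM in HL and 0.143, 0.147 and 0.0916 TPM in FL. The ratio of the means was 146, and the log2 fold change was 4.11 (SE 0.15, limma adjusted p = 4.18e-08). Tbx4, a T-box factor of the hindlimb, had 5.43, 8.21 and 6.39 TPM in HL and 0.401, 0.489 and 0.468 TPM in FL (log2 fold change 2.39, SE 0.15, limma adjusted p = 5.47e-06). Isl1, a LIM-homeodomain factor required to start the hindlimb bud, had 3.20, 2.77 and 3.71 TPM in HL and 0.624, 0.717 and 0.629 TPM in FL (log2 fold change 1.34, SE 0.11, limma adjusted p = 9.65e-05). In a fit over all 24 libraries the Isl1 fold change was 1.42 but the call was lost (limma adjusted p = 0.87), and without E10.5 mutant FL replicate 3, a library described below, it was 1.43 and called (limma adjusted p = 0.0212). None of these genes overlapped between limbs. FL levels of Tbx4 and Isl1 were low but above 0 in every library. Pitx1 lies at chr13:55825051-55836192 on the minus strand, Tbx4 at chr11:85886422-85916097 on the plus strand and Isl1 at chr13:116298281-116309689 on the minus strand (GRCm38).

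The forelimb factor Tbx5 was the reverse. Its level was 0.0212, 0.0211 and 0.0266 TPM in HL and 7.15, 6.74 and 6.81 TPM in FL. The FL mean was 300.1 times the HL mean, and the log2 fold change was -2.95 (SE 0.11, limma adjusted p = 4.18e-08). Tbx5 lies at chr5:119832668-119885219 on the plus strand. The HL traces were small but present in all 3 libraries.

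Of the posterior HoxC genes, Hoxc10 and Hoxc11 were higher in HL, while Hoxc12 and Hoxc13 were below the level filter and overlapped between limbs. Hoxc10 had 4.37, 4.06 and 4.13 TPM in HL and 0.141, 0.321 and 0.200 TPM in FL (log2 fold change 2.09, SE 0.08, limma adjusted p = 7.23e-08). Hoxc11 had 1.93, 2.28 and 1.70 TPM in HL and 0.118, 0.121 and 0.176 TPM in FL (log2 fold change 1.38, SE 0.10, limma adjusted p = 4.33e-05). Both are homeodomain factors expressed at the body level of the hindlimb, and neither overlapped between limbs. The annotated span of Hoxc5 covers Hoxc10 on the same strand, but Hoxc5 itself was not called. Hoxc10 and Hoxc11 lie at chr15:102966796-102971893 and chr15:102954427-102957708, both on the plus strand.

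Igf1, a secreted growth factor, was higher in HL and was the only called gene among 16 tested genes of a list of IGF ligands, receptors, binding proteins and growth regulators. Igf1 had 9.90, 9.33 and 13.2 TPM in HL and 2.71, 2.59 and 2.45 TPM in FL, with no overlap. The log2 fold change was 1.71 (SE 0.16, limma adjusted p = 0.00032). Igf1 lies at chr10:87858265-87937042 on the plus strand. In E11.5 mutant limbs, Igf1 had 7.78, 11.2 and 6.75 TPM in HL and 3.77, 3.46 and 2.94 TPM in FL (log2 fold change 1.10, limma adjusted p = 0.0132).

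At E10.5 the Igf1 levels of the limbs lay close together. E10.5 WT HL had 5.09, 7.37 and 7.44 TPM and E10.5 WT FL had 4.30, 7.86 and 6.55 TPM, on a scale set over the E10.5 libraries (log2 fold change 0.09, limma adjusted p = 0.94). The limb difference at E11.5 exceeded that at E10.5 by 1.64 on the log2 scale (SE 0.30), but this did not pass the threshold over all 24 libraries (limma adjusted p = 0.0852). A pair of E10.5 libraries stand apart, as their limb markers show. E10.5 mutant FL replicate 3 held hindlimb markers (Hoxc10 4.62, Tbx4 1.99 and Pitx1 1.81 TPM, beside Tbx5 at 2.14 TPM), and E10.5 WT FL replicate 1 had Tbx5 at 2.62 TPM against 8.67 and 11.7 TPM in replicates 2 and 3. Without the first, the Igf1 difference between stages was 1.65 (limma adjusted p = 0.0266), and without the second it was 1.85 (limma adjusted p = 0.025).

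Kctd12, Cadm2 and Stard13 were the other called protein-coding genes lower in HL. Kctd12, an auxiliary subunit of GABA-B receptors, had 1.93, 3.31 and 3.65 TPM in HL and 8.54, 7.28 and 7.49 TPM in FL (log2 fold change -1.17, SE 0.15, limma adjusted p = 0.00533). Cadm2, a cell adhesion molecule of the immunoglobulin superfamily, had 0.140, 0.222 and 0.576 TPM in HL and 1.6, 1.67 and 1.55 TPM in FL (log2 fold change -1, SE 0.12, limma adjusted p = 0.00362). HL values of these genes varied between libraries more than the FL values in ratio, yet none reached FL. Stard13, a protein with a START lipid-binding domain, had 0.746, 0.928 and 0.831 TPM in HL and 1.99, 2.48 and 2.18 TPM in FL (log2 fold change -0.81, SE 0.12, limma adjusted p = 0.0189). The Stard13 call was lost without HL replicate 1, 2 or 3 or FL replicate 2 or 3, each taken singly, with adjusted p up to 0.133, and on the deposited scale, where adjusted p was 0.286. Kctd12 also lost its call on the deposited scale (limma adjusted p = 0.212), and Cadm2 lost it with a pseudocount of 0.1 (limma adjusted p = 0.108). Kctd12 lies at chr14:102976581-102982637, Cadm2 at chr16:66655421-67620908 and Stard13 at chr5:151037510-151233836, all on the minus strand. Cadm2 fell outside the naming rule and was chosen after its values were seen.

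**Figure D2:**
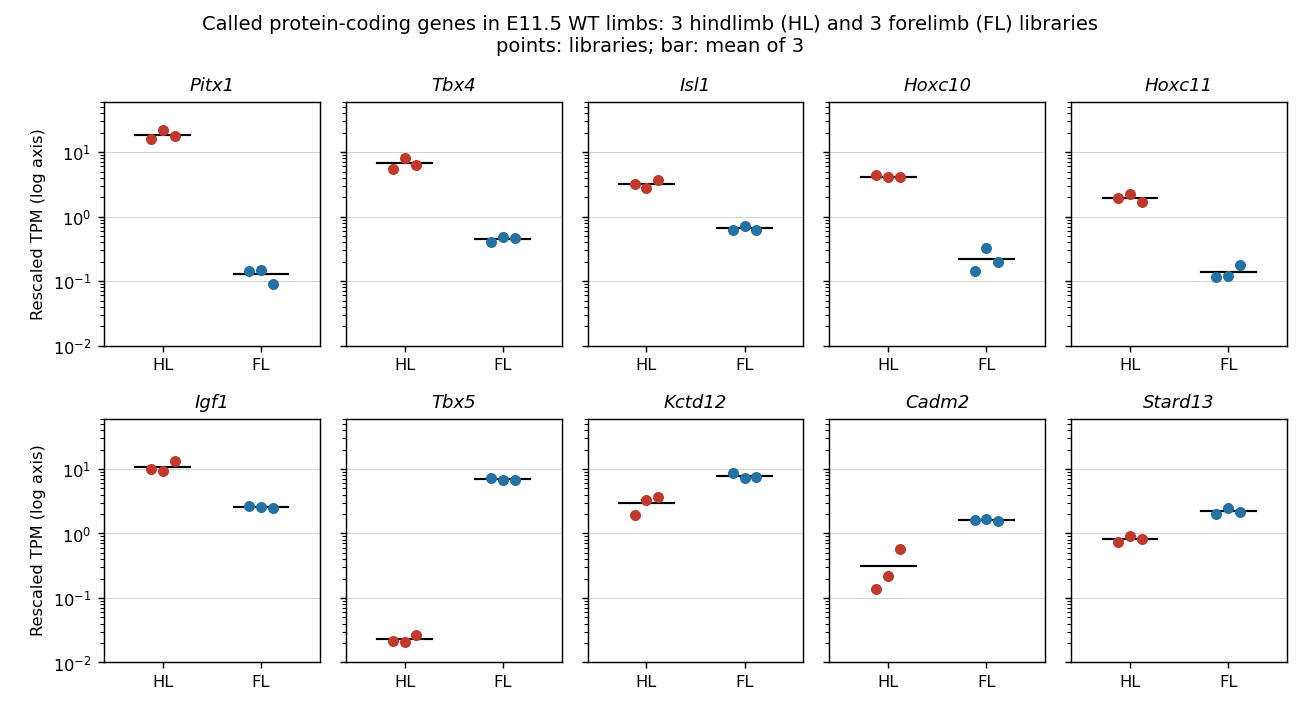
Rescaled TPM on a log axis of the 10 called protein-coding genes in each E11.5 WT library, HL left of FL, with bars at the mean of 3. In every panel the 3 HL points lie wholly above or wholly below the 3 FL points; the spread within a limb is widest for Cadm2 in HL.

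RefSeq start-site windows, 250 bases before to 50 after the annotated start (GRCm38.p6), were found for 6 of the 10 called protein-coding genes. The windows of Tbx4, Isl1 and Igf1, higher in HL, and of Kctd12, lower in HL, are shown to set the called genes side by side. They lie at chr11:85896515-85896814 (plus strand), chr13:116309639-116309938 (minus strand), chr10:87860861-87861160 (plus strand) and chr14:102982588-102982887 (minus strand). The Tbx4 and Igf1 windows lie inside the gene spans given above, so they belong to internal starts. Their motif distances and GC content are not those of the outermost start of the gene. Capitals mark matches on either strand to any of 6 short motifs: the TATA box TATAAA, the CCAAT box, spelled by its name, the T-box core GGTGTGA, the PITX and bicoid core TAATCC, the GC box GGGCGG and the MEIS core TGACAG.
Tbx4: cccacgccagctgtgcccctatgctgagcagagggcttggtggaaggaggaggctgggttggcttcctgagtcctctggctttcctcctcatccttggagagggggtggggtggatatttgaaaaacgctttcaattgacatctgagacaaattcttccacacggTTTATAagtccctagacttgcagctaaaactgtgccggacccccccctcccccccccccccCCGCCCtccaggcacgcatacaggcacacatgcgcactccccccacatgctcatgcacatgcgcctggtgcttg
Isl1: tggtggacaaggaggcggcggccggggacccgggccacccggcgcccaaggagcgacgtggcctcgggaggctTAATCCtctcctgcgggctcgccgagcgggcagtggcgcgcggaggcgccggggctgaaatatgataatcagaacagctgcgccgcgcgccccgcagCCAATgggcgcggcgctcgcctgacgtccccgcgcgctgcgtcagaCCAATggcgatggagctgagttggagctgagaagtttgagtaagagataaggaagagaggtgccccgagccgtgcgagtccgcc
Igf1: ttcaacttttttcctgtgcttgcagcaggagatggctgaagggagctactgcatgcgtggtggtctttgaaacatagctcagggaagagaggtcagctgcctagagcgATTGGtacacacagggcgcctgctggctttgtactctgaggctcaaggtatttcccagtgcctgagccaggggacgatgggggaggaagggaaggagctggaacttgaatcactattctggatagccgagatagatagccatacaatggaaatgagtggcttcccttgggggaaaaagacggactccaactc
Kctd12: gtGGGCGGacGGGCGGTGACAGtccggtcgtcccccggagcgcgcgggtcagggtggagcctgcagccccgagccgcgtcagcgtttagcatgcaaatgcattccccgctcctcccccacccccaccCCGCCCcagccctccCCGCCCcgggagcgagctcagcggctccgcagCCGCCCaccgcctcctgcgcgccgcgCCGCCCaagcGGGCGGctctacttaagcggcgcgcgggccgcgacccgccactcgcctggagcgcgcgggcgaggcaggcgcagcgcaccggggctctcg

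The windows of the genes differed in composition and motifs. Tbx4 held the TATAAA motif on the minus strand 85 bases before the start and a GC box 24 bases before it. Isl1 held CCAAT 80 and 34 bases before the start and TAATCC 177 bases before it. Igf1 held 1 match, CCAAT on the minus strand 142 bases before the start. Kctd12 held 7 GC boxes, and 1 TGACAG that directly follows the second of them. GC content was 59.0% for Tbx4, 69.0% for Isl1, 52.3% for Igf1 and 78.0% for Kctd12, against a median of 52.7% over 27025 windows. Of those windows, TATAAA was in 14.2%, CCAAT in 37.9%, GGTGTGA in 4.0%, TAATCC in 7.2%, GGGCGG in 35.9% and TGACAG in 19.3%. A match is a string of letters and not a measured site.

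The other 6 called genes were noncoding, and 5 of them lay beside or inside a called gene or a Hox gene. These were named after their values were seen. Gm28760, a lincRNA inside Pitx1 on the same strand, had 2.16, 1.92 and 2.66 TPM in HL and was listed at 0, 0 and 0.0415 TPM in FL (limma adjusted p = 8.38e-05). Gm43050, a lincRNA 0.7 kb from Tbx5 on the opposite strand, was listed at 0, 0 and 0.0560 TPM in HL and had 4.09, 5.59 and 5.94 TPM in FL (limma adjusted p = 6.79e-07). A second lincRNA, 1700021F13Rik, 24.8 kb from Tbx5, was listed at 0, 0 and 0.0979 TPM in HL and had 4.16, 3.45 and 4.54 TPM in FL (limma adjusted p = 1.5e-06). Each went the way of the coding gene beside it. Among the WT libraries these lincRNAs reached the level filter only in the limb where they were high. Libraries near 0 add little spread to the pooled estimate, which may then be too small for that limb. The size of these p-values is therefore not a measure of support.

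Gm53, a lincRNA 20.4 kb from Hoxb9, had 1.77, 1.22 and 1.35 TPM in HL and 0.0703, 0.0735 and 0.132 TPM in FL (limma adjusted p = 0.000911). Among the WT libraries Gm53 reached the level filter only in HL, so the same limit applies to its p-value. Gm26778, which overlaps Kctd12 on the opposite strand, had 1.14, 1.31 and 1.40 TPM in HL and 4.20, 3.38 and 3.92 TPM in FL (limma adjusted p = 0.000577). The strand setting of the counting is not given in the sources used here, so reads of Gm26778 and Kctd12, and likewise of Gm28760 and Pitx1, cannot be told apart with certainty. Gm24405, a snRNA gene within Kif26b, had 4.22, 1.66 and 4.79 TPM in HL and was listed at 0 in the 3 FL libraries (limma adjusted p = 0.000895). Among the WT libraries it reached the level filter only in HL, and its limb effect in E11.5 mutant limbs was 0. Libraries at 0 add no spread to the pooled estimate, which is then too small for HL. This p-value is therefore no support for a limb difference. Within 500 kb of the starts of the limb factors, 1 of 16 tested neighbours of Pitx1 was called, 0 of 5 of Tbx4 and 2 of 5 of Tbx5, and these 3 are the lincRNAs named above. Over all 10978 genes tested, 0.146% were called. The called neighbours were all near 0 in 1 limb, with the limit on p-values given above.

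Across the 4 Hox clusters, 20 of 39 genes were tested and 2 were called, Hoxc10 and Hoxc11. The 7 tested HoxD genes, which pattern the limb along its proximal-distal and anterior-posterior axes, all had a log2 fold change below 0 (median -0.41) and none passed the test. Hoxd10 was nearest, at 5.4, 4.92 and 4.20 TPM in HL and 7.78, 6.73 and 6.86 TPM in FL (log2 fold change -0.48, SE 0.09, limma adjusted p = 0.1). In E11.5 mutant limbs the Hoxd10 difference was -0.62 and was called (limma adjusted p = 0.0141). Hoxd9, Hoxd11 and Hoxd4 also had 3 HL values below the 3 FL values, without a call. Hoxd12 had 5.23, 7.14 and 4.96 TPM in HL and 10.8, 7.11 and 7.29 TPM in FL, and the limbs overlapped. Hoxd13, the most distal of the cluster, had 7.04, 10.8 and 8.72 TPM in HL and 14.3, 12 and 9.76 TPM in FL, and also overlapped.

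HoxA genes leaned the other way, with 7 of 8 tested members above 0 (median 0.18) and none called. Hoxa9 had 25.6, 21.5 and 21.3 TPM in HL and 21.3, 18.9 and 18.2 TPM in FL (log2 fold change 0.22, limma adjusted p = 0.73). Hoxa11, a gene of the zeugopod, the middle limb segment, had 10.7, 10.2 and 10.2 TPM in HL and 8.76, 8.30 and 8.71 TPM in FL (log2 fold change 0.25, limma adjusted p = 0.717). Among the genes below the level filter, Hoxc8, Hoxc9, Hoxb7, Hoxb8 and Hoxb9 had all 3 HL values above all 3 FL values, at low levels, and Hoxd3 had them below. These untested genes carry no call.

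**Figure D3:**
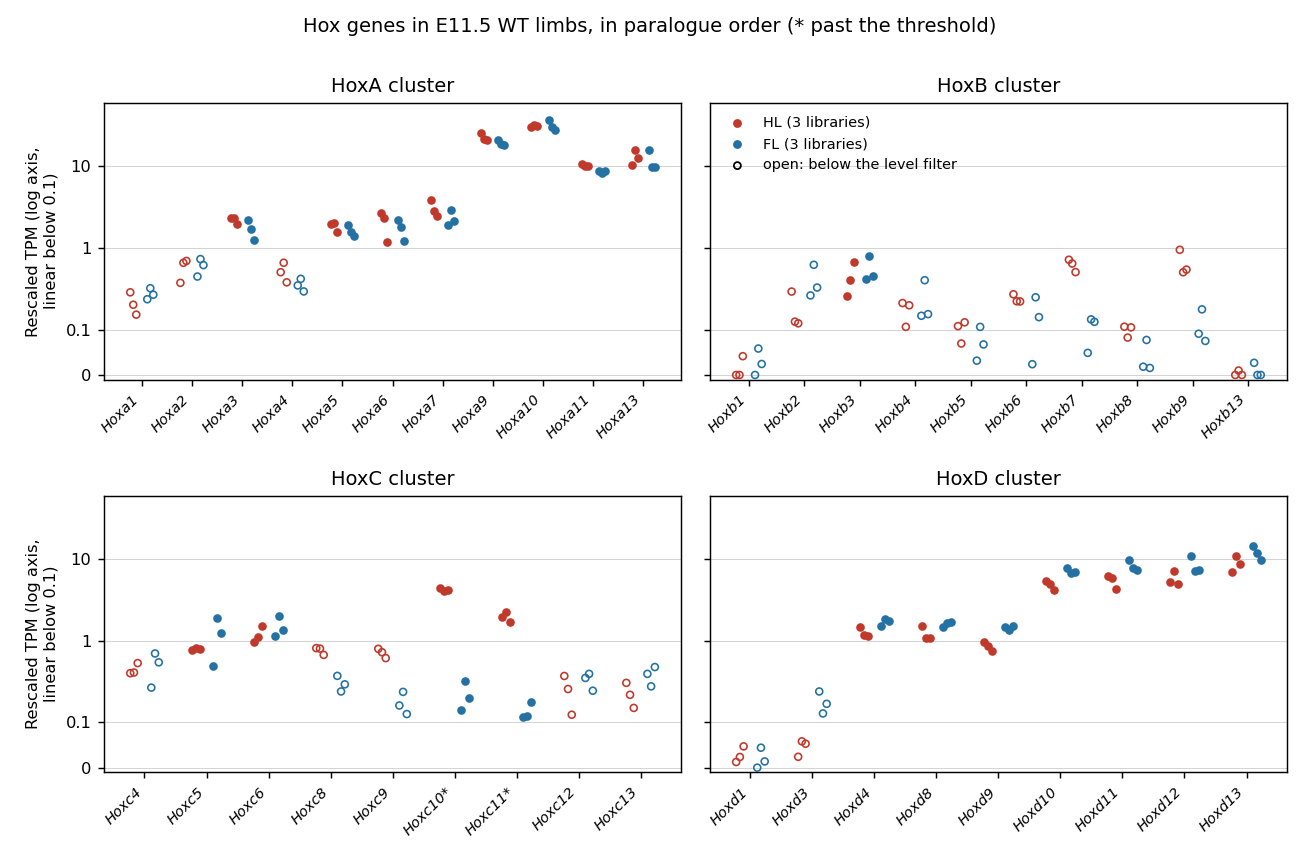
Rescaled TPM of the 39 Hox genes in the 6 E11.5 WT libraries by cluster, HL left of FL, on an axis that is logarithmic above 0.1 and linear below; open points are genes below the level filter. Hoxc10 and Hoxc11 points of HL lie far above those of FL, while most HoxD points of HL lie below those of FL.

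The next 13 genes in order of p had limma adjusted p between 0.0565 and 0.0766, with 5 higher and 8 lower in HL and no overlap between limbs. Over all genes tested, 12.1% had no overlap. They include Ghr, the growth hormone receptor, at 3.81, 4.25 and 3.69 TPM in HL and 6.10, 7.13 and 6.55 TPM in FL (log2 fold change -0.63, limma adjusted p = 0.0565), and Socs2, a feedback inhibitor of growth hormone signalling, at 4.25, 4.42 and 3.93 TPM in HL and 8.52, 8.41 and 8.02 TPM in FL (log2 fold change -0.84, limma adjusted p = 0.0565). Has2, a hyaluronan synthase, had 4.39, 4.26 and 4.49 TPM in HL and 7.23, 6.85 and 7.61 TPM in FL (log2 fold change -0.61, limma adjusted p = 0.0565). The spread within each limb was small for these 3 genes. Alcam, a cell adhesion molecule, had 4.96, 5.37 and 6.87 TPM in HL and 10.3, 11.7 and 13 TPM in FL (log2 fold change -0.91, limma adjusted p = 0.0605). Ngfr, the low-affinity neurotrophin receptor, had 0.806, 1.04 and 1.04 TPM in HL and 1.96, 2.40 and 2.37 TPM in FL (log2 fold change -0.73, limma adjusted p = 0.0565).

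Has2, Ghr, Socs2, Alcam and Ngfr were each called in the fit on the 6 WT libraries alone. That fit also called Lin28b, Meis1, Peg3 and Igdcc3 as higher in HL and Tnc, Dkk2, Wnt11, Krt17, Nbl1, Acta2 and Ttn as lower. These genes were named after their values were seen. Igdcc3, an immunoglobulin-superfamily protein, had 2.45, 2.22 and 1.76 TPM in HL and 0.573, 0.508 and 0.449 TPM in FL, without overlap, and its adjusted p in the fit on 12 libraries was 0.66 (limma).

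The remaining gene lists gave no call beyond those named, so their members are described by counts and medians beside the median of all genes, -0.01. Of all genes tested, 52.4% were below 0, and a list with a share near this is not shown to lean either way. Among genes of IGF signalling and growth control, 9 of 16 were above 0 in HL (median 0.11, which was 0.03 without HL replicate 2, 0.05 without FL replicate 2 and 0.22 with TPM recomputed over protein-coding genes). Lin28b, an RNA-binding repressor of let-7 maturation, had 8.09, 7.85 and 7.10 TPM in HL and 4.02, 2.65 and 2.47 TPM in FL (log2 fold change 1.12, limma adjusted p = 0.168). Lin28a had 2.20, 1.42 and 0.980 TPM in HL and 0.572, 0.545 and 0.585 TPM in FL, and Hmga2, a chromatin protein that let-7 represses, had 50.2, 70.4 and 59.6 TPM in HL and 39.6, 41.3 and 35.6 TPM in FL. Neither passed the test (limma adjusted p = 0.73 for Lin28a and 0.396 for Hmga2). The libraries of the limbs did not overlap for either gene, which was so for 12.1% of all genes tested.

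Of 23 tested genes of bone morphogenetic protein (BMP) signalling, 19 had a log2 fold change below 0 (median -0.14), and 0 were called. The summed level was 203, 196 and 203 TPM in HL and 232, 240 and 229 TPM in FL. Bmp2, a ligand, had 0.468, 0.594 and 0.687 TPM in HL and 1.54, 1.28 and 1.27 TPM in FL (log2 fold change -0.58, limma adjusted p = 0.425). Bmpr1b, a receptor, had 1.12, 1.83 and 1.78 TPM in HL and 2.99, 2.82 and 2.88 TPM in FL (log2 fold change -0.61, limma adjusted p = 0.405). The targets Id1 and Msx2 had log2 fold changes of -0.58 and -0.52, and Smoc1, a secreted BMP antagonist, 0.60. HL values lay outside the FL range for Bmp2, Bmpr1b, Id1, Msx2 and Smoc1. Of the 23 tested, 6 had all HL values below all FL values and 1 had them above. Over all genes tested the shares were 7.1% below and 4.96% above.

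Among 26 tested Wnt genes, 14 were above 0 and 12 below (median 0.07, which turned to -0.09 without HL replicate 1 and to -0.03 without FL replicate 2). Dkk2, a secreted Wnt modulator, had 1.04, 0.964 and 1.40 TPM in HL and 2.58, 3.27 and 3.44 TPM in FL (log2 fold change -0.94, limma adjusted p = 0.243). Wnt11, a ligand, had 2.15, 2.17 and 2.52 TPM in HL and 4.04, 5 and 4.96 TPM in FL (log2 fold change -0.79, limma adjusted p = 0.356). Sfrp1, a secreted Wnt-binding protein, had 2.19, 2.48 and 2.97 TPM in HL and 0.875, 1.36 and 1.34 TPM in FL (log2 fold change 0.70, limma adjusted p = 0.719).

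Genes of retinoic acid signalling and proximal limb identity summed to 242, 248 and 247 TPM in HL and 202, 204 and 205 TPM in FL, and 11 of 16 tested were above 0 (median 0.17). Crabp2, a retinoic acid binding protein, held the largest share, at 87.1, 74.1 and 81.1 TPM in HL and 64.1, 71.2 and 70.6 TPM in FL (limma adjusted p = 0.82). Meis1 and Meis2 are homeodomain factors of the proximal limb. Meis1 had 12.2, 11.6 and 11.3 TPM in HL and 5.35, 7.50 and 6.53 TPM in FL (log2 fold change 0.78, limma adjusted p = 0.516). Meis2 had 16.2, 16.5 and 16.6 TPM in HL and 8.36, 11.7 and 8.72 TPM in FL (log2 fold change 0.73, limma adjusted p = 0.455). Aldh1a2, which makes retinoic acid, was on the other side at 0.364, 1.12 and 1.26 TPM in HL and 1.59, 2.10 and 2.83 TPM in FL (log2 fold change -0.74, limma adjusted p = 0.717).

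Genes of the Shh pathway and posterior limb were above 0 in 11 of 16 (median 0.18), led by Sall4, a zinc-finger factor, at 1.27, 2.39 and 1.67 TPM in HL and 0.823, 0.567 and 0.482 TPM in FL (log2 fold change 0.76, limma adjusted p = 0.425). Tbx3, a T-box factor of the limb margins, lay on the other side at 2.02, 2.29 and 2.35 TPM in HL and 2.64, 3.30 and 3.24 TPM in FL (log2 fold change -0.33, limma adjusted p = 0.51). Of the FGF genes, 10 of 16 were above 0 (median 0.14). Etv4, a transcriptional target of FGF signalling, differed by 0.25 and Fgfr2, a receptor, by -0.21. Limb mesenchyme transcription factors were below 0 in 19 of 32 (median -0.09), and Irx3, an Iroquois factor of the early limb field, had 3.95, 3.44 and 4.46 TPM in HL and 1.15, 2.22 and 1.82 TPM in FL (log2 fold change 0.87, limma adjusted p = 0.314).

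Muscle markers summed to 12.7, 20.1 and 20.5 TPM in HL and 25.9, 47.8 and 55.4 TPM in FL. Of 12 tested, 9 were below 0 (median -0.69), and 0 were called. Actc1, cardiac alpha actin, had 0.374, 1.98 and 2.41 TPM in HL and 6.21, 13.1 and 16.1 TPM in FL (log2 fold change -2.32, limma adjusted p = 0.524). Myog, a transcription factor of muscle cell differentiation, had 0.256, 0.950 and 0.942 TPM in HL and 1.86, 4.45 and 5.22 TPM in FL (log2 fold change -1.45, limma adjusted p = 0.555). Pax3, a factor of migrating precursors, had a log2 fold change of 0.26 (limma adjusted p = 0.78), and Myf5, a factor of myoblasts, -0.13 (limma adjusted p = 0.868). FL replicate 1 held less muscle RNA than FL replicates 2 and 3, and HL replicate 1 less than HL replicates 2 and 3.

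Collagens and matrix genes were below 0 in 15 of 22 tested (median -0.23). Tnc, a matrix protein of tendon and perichondrium, had 0.184, 0.583 and 0.443 TPM in HL and 1.95, 2.35 and 3.71 TPM in FL (log2 fold change -1.37, limma adjusted p = 0.169). Col6a3 had 1.86, 2.00 and 2.31 TPM in HL and 2.78, 3.92 and 5.66 TPM in FL (log2 fold change -0.71, limma adjusted p = 0.426). Surface ectoderm markers were below 0 in 11 of 18 (median -0.16), and the epidermal keratin Krt14 had 13.9, 10.7 and 8.48 TPM in HL and 18.7, 25.1 and 33.5 TPM in FL (log2 fold change -1.14, limma adjusted p = 0.645). The ectoderm sum was 109, 69.5 and 61.8 TPM in HL and 90.0, 95.2 and 115 TPM in FL, so it overlapped between limbs.

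Markers of neighbouring tissues were mostly below the level filter. Of 16 trunk and somite markers, 3 were tested, 13 were below 1 TPM in all 6 libraries and 2 were listed at 0 in all; the sum was 13.1, 14.7 and 15.5 TPM in HL and 19.8, 18.6 and 20.5 TPM in FL. Most of that sum was Meox2, a homeodomain factor of somites and limb muscle, at 8.74, 9.52 and 10.4 TPM in HL and 15.7, 13.1 and 14.9 TPM in FL, which did not pass the test (limma adjusted p = 0.711). Of 14 heart and pharynx markers, 12 were below 1 TPM throughout, and of 16 urogenital and cloacal markers, 9 were; the urogenital sum was 34.0, 44.9 and 38.1 TPM in HL and 37.6, 30.2 and 28.3 TPM in FL. In that last list 2 genes were called, Tbx4 and Isl1, which the limb type list also holds. Their part in the limb differences was not tested.

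**Figure D4:**
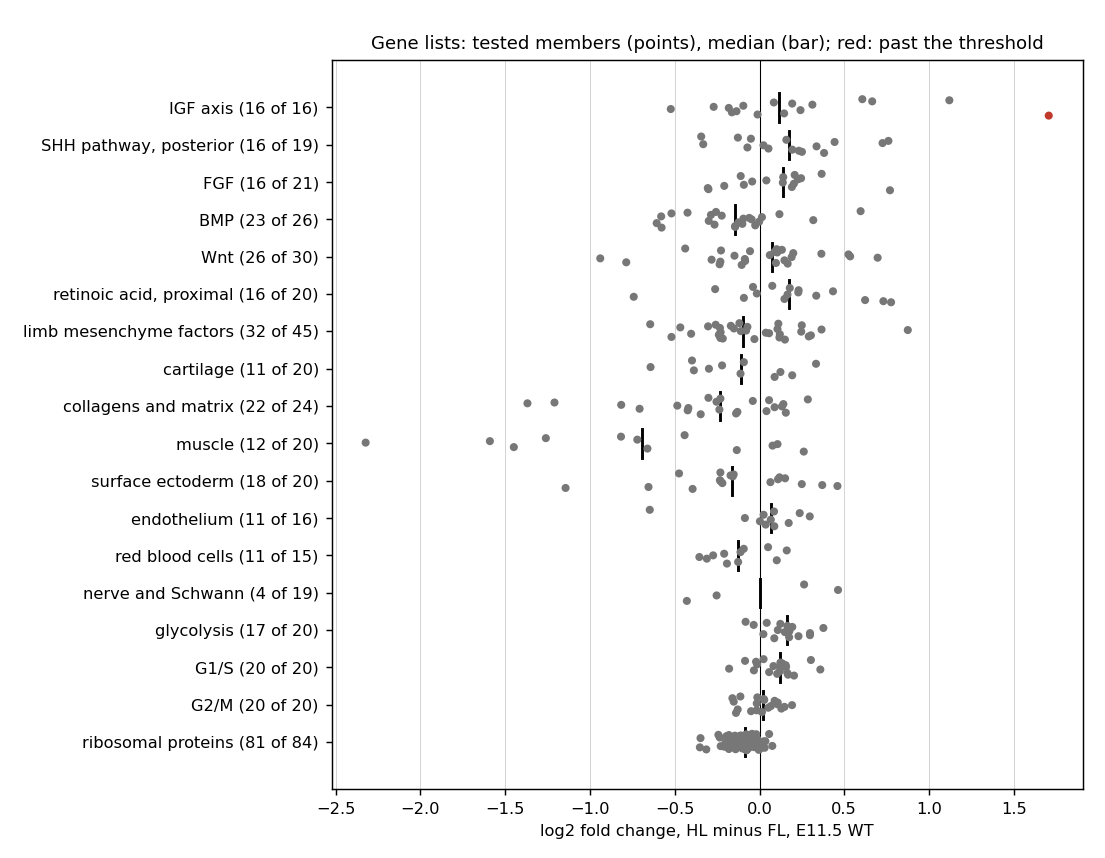
Log2 fold change, HL minus FL, E11.5 WT, of each tested member (point) of 18 gene lists, with the list median as a bar and the number tested of the number listed beside the name. The muscle median is at -0.69, most other medians lie within 0.25 of 0, and Igf1 in red is the called point.

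Genes that differ between stages were looked at next, chosen in the mutant libraries and so in none of the 6 WT libraries. The E11.5 mutant libraries do enter the rescaling, the filter and the spread estimate of the limb comparison. In the 12 mutant libraries, E11.5 against E10.5, 62.1% of 11552 genes were called (32.8% higher at E11.5 and 29.3% lower), and those past 1 on the log2 scale formed the stage sets. Of 129 protein-coding genes higher at E11.5, 17.8% had all HL values below all FL values and 3.1% had them above. For 54 protein-coding genes lower at E11.5, 3.7% were below and 27.8% above. Over all 9835 protein-coding genes tested, 6.82% were below and 5.1% above. The restriction to protein-coding genes was chosen after the values were seen; with all gene types, 13.2% of 212 genes higher at E11.5 were below and 3.3% above, and 4.67% of 107 genes lower at E11.5 were below and 16.8% above. Without E10.5 mutant FL replicate 3, the protein-coding shares were 19.8% below and 2.29% above for the set higher at E11.5, and 5.45% below and 23.6% above for the set lower at E11.5. The stages also differ in read trimming, and its part in which genes entered the sets was not tested. All these libraries are U11 mutant, so normal stage differences and effects of U11 loss that differ by stage cannot be told apart in the sets.

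Median differences of the stage sets were small. The median log2 fold change, HL minus FL, was -0.06 for the set higher at E11.5 and 0.07 for the set lower at E11.5. Leaving out a library moved the first between -0.01 and -0.11, and the second became 0.01 without HL replicate 1 and turned to -0.001 without FL replicate 1. No protein-coding gene of either set was called between limbs. Examples higher at E11.5 are Krt17, at 1.53, 1.74 and 1.02 TPM in HL and 4.90, 6 and 6.33 TPM in FL, Nbl1, a secreted BMP antagonist, at 3.72, 4.26 and 3.86 TPM in HL and 8.54, 9.44 and 8.51 TPM in FL, and Tnnt1, slow skeletal troponin, at 1.41, 2.00 and 2.43 TPM in HL and 4.24, 8.95 and 11.9 TPM in FL. Examples lower at E11.5 are Crabp1, a retinoic acid binding protein, at 32.4, 28 and 27.7 TPM in HL and 24.2, 18.3 and 22.3 TPM in FL, and Mest, an imprinted gene, at 131, 146 and 119 TPM in HL and 103, 106 and 102 TPM in FL. None of these 5 overlapped between limbs. In the set higher at E11.5, 4 genes went the other way without overlap. They were Synpo, Pmaip1, Ssbp4 and Ctxn1, with log2 fold changes of 0.45, 0.50, 0.25 and 0.17.

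**Figure D5:**
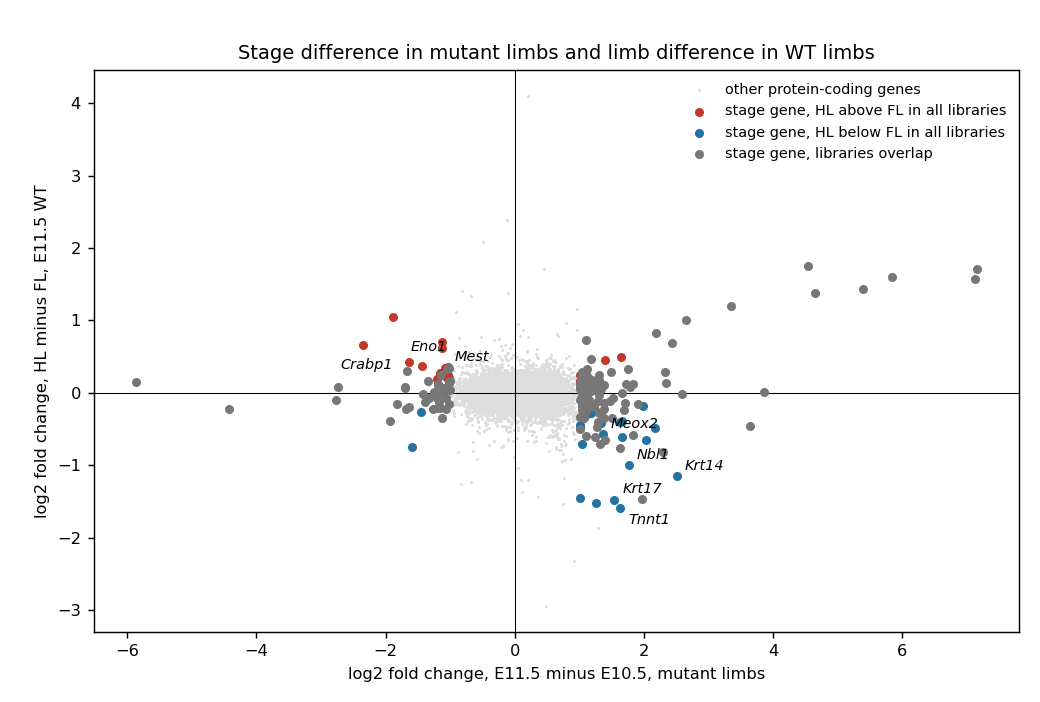
Log2 fold change between limbs (HL minus FL, E11.5 WT) against log2 fold change between stages (E11.5 minus E10.5, mutant limbs) for protein-coding genes, with stage genes coloured by whether the HL and FL libraries overlap. Krt14, Krt17, Nbl1 and Tnnt1 lie at the lower right and Crabp1 and Mest at the upper left. At the upper right, grey points are genes whose libraries overlap, and 4 stage genes there have HL above FL in all libraries.

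The 16 called genes were then read in limbs that do not enter the WT contrast. In E11.5 mutant limbs, HL against FL gave 48 calls (0.437% of 10978 genes); 15 of the 16 had the same direction and 13 were called there too, the exceptions being Gm24405, Cadm2 and Stard13. Pitx1 had a log2 fold change of 3.88 in mutant limbs, Tbx4 1.95, Hoxc10 2.09 and Tbx5 -2.78. The WT and mutant contrasts share the estimate of the spread but no library. The difference between the WT and mutant effects was called for 1 gene of 10978 (0.00911%), which is none of the 16, and 1478 genes (13.5%) had an unadjusted p under 0.05. Of the 16, Gm24405 was called for this difference on the deposited scale and without WT HL replicate 2. Across all 10978 genes the limb effects of WT and mutant limbs had a Pearson correlation of 0.11 and a Spearman correlation of -0.15; genes are not independent replicates, and the 2 contrasts share rescaling and filter.

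In E10.5 WT limbs, 11 genes were called (0.0935% of 11771). Of the 15 called genes that were tested there, 14 had the same direction and 5 were called: Pitx1, Tbx4, Tbx5, Gm28760 and Gm43050. Without E10.5 mutant FL replicate 3, which shares the estimate of the spread, 18 genes were called, and Hoxc10 and Isl1 joined these 5. Across 10699 genes tested at both stages the WT limb effects had a Pearson correlation of 0.18 and a Spearman correlation of 0.19, again across genes and not replicates. Without E10.5 WT FL replicate 1, 9 genes were called and Pitx1 and Tbx5 remained of 14 tested. Isl1 had 7.42, 5.54 and 5.14 TPM in E10.5 WT HL and 0.353, 0.259 and 0.620 TPM in E10.5 WT FL. Hoxc10 had 8.95, 7.23 and 9.16 TPM in E10.5 WT HL and was listed at 0, 0.169 and 0.397 TPM in E10.5 WT FL. The limb difference differed between E11.5 and E10.5 for 2 genes of 12118 (0.0165%), neither of them among the 16, and 831 genes (6.86%) had an unadjusted p under 0.05.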

How the data were processed

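The deposited values were TPM for 38019 gene symbols, made by the authors and summing to 1000000 in each library. HISAT2 and the mm10 build are named in the submitters' processing notes. Which quantifier, annotation and strand setting were used is not given in the sources used here. E10.5 reads were trimmed by 3 nt, per the labels' protocols. The 12 E11.5 libraries were rescaled to a common median over 3949 genes with at least 5 TPM in all of them. Genes that reached 1 TPM in 3 or more libraries were fitted on log2(TPM + 1) with limma 3.58.1 in R 4.3.3, using an intensity trend, the 4 groups and 8 residual degrees of freedom, and two-sided p-values were adjusted by Benjamini-Hochberg over all genes tested at 0.05. The E10.5 libraries, all 24 libraries and the 12 mutant libraries were rescaled and fitted in the same way. Called means an adjusted p under 0.05. The E11.5 fit was tested on simulated libraries with normal noise and changes of 1 or 2 on the log2 scale. Changes were planted only in genes above about 5 TPM. The fit recovered 94.5% of the changes of 1 and 96.3% of those of 2, with 8 false calls among 10708 genes. This outcome does not cover called genes near 0 in 1 limb. Coordinates and gene types came from GENCODE M21 (GRCm38), which matched 36217 symbols by name.

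Genes named by rule were the limb type and Hox genes, up to 12 called genes in each direction whose limbs did not overlap and whose higher mean was at least 2 TPM, called or most expressed list members, and genes within 500 kb of Tbx5, Tbx4 and Pitx1; predicted and Y-linked genes were left out. Other genes given as examples were chosen after their values were seen. The members and the gene lists were chosen with earlier results of these data known. Alternatives were the deposited scale, protein-coding genes only, another pseudocount, no filter, other sets of libraries, a replicate block and leaving out each library; 2 that leave out an E10.5 library were chosen after seeing the data.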

Additional observations from a re-analysis of the deposited data

Results flagged for a closer look

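The limb difference of 3 genes was called as different between settings by a test of the difference itself. Eda2r, a receptor of the tumour necrosis factor family and a p53 target, had 0.596, 0.408 and 0.589 TPM in WT HL and 0.423, 0.500 and 0.405 TPM in WT FL at E11.5. In E11.5 mutant limbs it had 0.632, 0.429 and 0.569 TPM in HL and 6.55, 5.42 and 3.23 TPM in FL. The WT effect minus the mutant effect was 2.02 on the log2 scale (limma adjusted p = 0.037). Eda2r was not called for this difference with a replicate block, without a filter, or when any WT library other than HL replicate 2 was left out. The mutant FL libraries stood above the other 3 groups, which overlapped. Of the E11.5 libraries, only those of mutant FL reached 1 TPM, so Eda2r passed the level filter only through the group where it was high. Groups at low levels add little spread to the pooled estimate, which may then be too small for mutant FL. The p-value of Eda2r is therefore no support for a difference.

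Gria2, a glutamate receptor subunit, had 2.35, 2.60 and 4.03 TPM in HL and 1.80, 2.20 and 2.30 TPM in FL at E11.5 WT, on a scale set over all 24 libraries. At E10.5 WT it had 0.0518, 0.255 and 0.399 TPM in HL and 3.93, 6.49 and 3.94 TPM in FL. The E11.5 effect minus the E10.5 effect was 2.55 (limma adjusted p = 0.00805). Gm28037, a predicted gene, was listed at 0 in all E11.5 WT libraries and in E10.5 WT HL, and had 61.5, 106 and 56.2 TPM in E10.5 WT FL. Its fitted difference was 6.18 (limma adjusted p = 0.00209), a value that depends on the pseudocount. Among the WT libraries Gm28037 was above 0 only in E10.5 WT FL, and groups at 0 add no spread to the pooled estimate. Its p-value is therefore no support for a difference between stages.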

How the results depend on the processing

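Across 14 alternatives, the 16 HL against FL calls became 44 with the 6 WT libraries alone; the others gave 13 to 23, and 15 to 20 when 1 of the 6 libraries was left out. Of 218 pairs of a called gene and an alternative, 201 kept direction and call, 17 lost the call and 0 changed direction. Of 918 such pairs for the 66 genes not called whose values were followed through the alternatives, 33 became called and 0 changed sign. Of 446 list medians, 432 moved by less than the spread between libraries; the muscle median became -1.72 with pseudocount 0.1 and -1.48 with TPM recomputed over protein-coding genes. The 1 gene with a different WT and mutant effect became 3 on the deposited scale, 2 with pseudocount 0.1, 0 without a filter and 0 with a replicate block, and 0 to 3 on leaving out 1 WT library; Eda2r remained without HL replicate 2 and in none of the other 5. The 2 genes that differed between stages became 9 without a filter, 2 to 4 on leaving out 1 E11.5 WT library, 5 without E10.5 mutant FL replicate 3 and 5 without E10.5 WT FL replicate 1. The causes of these moves were not tested. Same-numbered HL and FL libraries correlated at -0.171, -0.135 and -0.048 in their deviations from the group means. With 3 libraries per limb these values cannot show whether same-numbered libraries share embryos, and the labels do not say. They were not treated as pairs, and a replicate block gave 19 calls, including all 16. Over all 24 libraries Isl1, Kctd12, Gm53, Gm26778 and Gm24405 lost their calls; without E10.5 mutant FL replicate 3, Isl1 and Gm53 were called again. TPM carries no depth, so no floor can be given for genes listed at 0, and 3 libraries per limb limit the precision: a gene not called is not shown to be equal in the limbs.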

Other observations

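Of 17 tested genes of glycolysis and the hypoxia response, 15 had a log2 fold change above 0 (median 0.16) and 0 were called; Eno1, a glycolytic enolase, had 45.3, 59.9 and 46.4 TPM in HL and 44.7, 33.1 and 38.2 TPM in FL (log2 fold change 0.38, limma adjusted p = 0.627). Of 20 genes of the G1 to S transition, 15 were above 0 (median 0.12), and of 20 genes of the G2 and M phases, 11 were (median 0.02). Ribosomal protein genes were below 0 in 73 of 81 (median -0.09), and 0 were called. Red blood cell markers were below 0 in 8 of 11 (median -0.13), and endothelial markers above 0 in 9 of 11 (median 0.07). Leaving out 1 library turned the sign of some of these medians: the G2 and M median was -0.05 without FL replicate 2 and -0.001 without FL replicate 3, the ribosomal median 0.005 without HL replicate 2, the red blood cell median 0.05 without FL replicate 3 and the endothelial median -0.01 without HL replicate 2.

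Peg3 and Usp29, neighbouring imprinted genes, were both on the HL side and were chosen after their values were seen. Peg3 had 66.7, 75.2 and 63.3 TPM in HL and 44.6, 39.4 and 37.6 TPM in FL (log2 fold change 0.74, limma adjusted p = 0.1). Usp29 had 3.76, 4.45 and 4.47 TPM in HL and 2.62, 2.29 and 2.66 TPM in FL (log2 fold change 0.57, limma adjusted p = 0.388). Neither overlapped between limbs, which was so for 12.1% of all genes tested.

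Of the minor spliceosome genes, 7 of 13 tested were above 0 (median 0.03, and -0.07 without HL replicate 1). Rnu12, which encodes the U12 small nuclear RNA, had 21.1, 29.8 and 30.7 TPM in HL and 11.7, 14.8 and 13.9 TPM in FL. The limbs did not overlap, and an exact two-sided permutation test gave p = 0.1, the smallest this design allows; the limma adjusted p was 0.73.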
